A study of Gallus gallus with 3 samples.

Results

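COL9A1 and COL9A3, 2 genes for chains of type IX collagen, were followed through single-cell RNA-seq of the developing chicken foot, among 11442 genes in the count tables of 3 stages. They were chosen by identifier (COL9A1, ENSGALG00000015970; COL9A3, ENSGALG00000005628) and not by a cut on their values, but with earlier results of these data known. Both were counted in every library. Untreated embryonic hindlimb was sequenced in 3 libraries, 1 for each Hamburger-Hamilton stage: HH25 from the whole autopod, HH29 from digits 3 and 4 with the interdigit tissue beside them, and HH31 from the tip of digit 4. HH25 and HH31 were made with 10x version 2 chemistry and HH29 with Drop-Seq as 3 technical replicates, so stage, platform and dissection changed together and cannot be told apart. After filtering, 5980, 6806 and 4818 cells remained at HH25, HH29 and HH31, with 2043, 2946 and 2476.5 UMIs per cell in the median. A UMI is a molecular tag that lets amplified copies of 1 transcript be counted once.

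Type IX collagen is built from a chain of each of the genes COL9A1, COL9A2 and COL9A3. It coats the surface of the thin cartilage fibrils made of type II and type XI collagen, to which it is cross-linked, and it is therefore classed as a fibril-associated collagen. In mammals, its COL9A1 gene is a known target of SOX9, the transcription factor that drives cartilage formation. In the chicken, a shorter form of the COL9A1 transcript is known from the eye, and tags at the 3′ end of transcripts, as counted here, do not separate the forms. In the RefSeq annotation of the assembly GRCg7b the 3 genes lie on 3 different chromosomes, and each overlaps its next neighbour, which is SMAP2 for COL9A2 and TCFL5 for COL9A3. The strand used in counting is not given in the sources used here, so reads from such an overlap cannot be told apart.

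Populations are the sub-clusters that the authors deposited, with the names and numbers of their marker tables. The skeletal sub-clusters were the chondrocytes at HH25 (sub-cluster 4), the late chondrocytes, early chondrocytes and forming joints at HH29 (3, 15 and 17) and the late and early chondrocytes at HH31 (1 and 2). The 4 chondrocyte markers (COL2A1, SOX9, ACAN and MATN4) had a summed level of 352 CPM (UMIs in 1000000 UMIs of a population) in the HH25 chondrocytes. It ranged between 2177 and 3731 CPM over the skeletal sub-clusters of HH29, and between 793 and 3528 CPM over those of HH31. These were the highest levels of their libraries, and none of the 4 markers was at 0 in any of them. The HH25 chondrocytes also held 924 CPM of the 2 connective tissue markers, 476 CPM of the 2 distal markers and 385 CPM of the mesenchyme marker PRRX1. Their SOX9 level was 1.74-fold that of the other HH25 cells. The study describes these cells as early skeletal progenitors with low SOX9. In the forming joints, the joint marker ENPP2 stood at 859 CPM, against 163 CPM in the early and 55.8 CPM in the late chondrocytes. GDF5, the other joint marker listed, which the study plotted for the joints, had no identifier and was not measured. The HH29 sub-cluster 14 lay outside the skeletal sub-clusters but held 1249.8 CPM of the 4 markers, the level next below, together with 1717 CPM of the 2 connective tissue markers, of which neither was at 0. A further sub-cluster, 6 at HH31, is given by its number. HH25 and HH31 shared 48 cell barcodes, and no other pair of libraries shared any. Since each stage had 1 library, no test was made, and all intervals are 95% intervals, exact unless stated, that cover counting error only. Both genes, and the other cartilage genes listed here, may also have helped to shape the sub-clusters and their names. Levels and ratios by sub-cluster are therefore a description.

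COL9A1 and COL9A3 at HH25 were detected mainly in the chondrocytes. COL9A1 had 240 of its 285 UMIs there (84.2%), at 131 CPM (115 to 149), and COL9A3 had 57 of 73 UMIs (78.1%), at 31.2 CPM (23.6 to 40.4). The chondrocytes made up 14.6% of the cells. Next in order stood the blood sub-cluster, with 3 UMIs of each gene (9.36 CPM, 1.93 to 27.4), an interval that overlapped that of the chondrocytes for COL9A3 but not for COL9A1. The mesenchyme, the largest sub-cluster with 4089 cells, had 4.16 CPM of COL9A1 (2.97 to 5.66) and 1.25 CPM of COL9A3 (0.645 to 2.18). No UMI of either gene was found in the distal mesenchyme, the muscle, the apical ectodermal ridge or the skin. A limit of 3 UMIs stands at 5.38 CPM for the skin and at 52.6 CPM for the ridge, with 24 cells. The exact intervals reach 6.62 and 64.6 CPM.

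Single HH25 chondrocytes held few copies. A COL9A1 UMI was seen in 180 of 874 cells (20.6%) and a COL9A3 UMI in 51 cells (5.84%), with at most 4 and 2 UMIs in a cell. The skin was assumed to lack both genes, which was not tested. In it, 0 of 218 cells held a UMI, where the exact interval allows a share of up to 1.68%. The median depth was 2106.5 UMIs per cell in the skin, against 1876 in the chondrocytes.

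At HH29, COL9A1 was highest in the late chondrocytes, where it reached 5014 CPM (4911 to 5117), with 9162 UMIs, which were 65.9% of its UMIs in 6.92% of the cells. COL9A3 was also highest there, at 1058 CPM (1011 to 1106), with 1933 UMIs. Nearly all late chondrocytes held COL9A1 (456 of 471, 96.8%), with up to 114 UMIs in 1 cell, and 81.5% held COL9A3, with up to 38.

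The forming joints and the early chondrocytes followed at a distance. COL9A1 had 1637 CPM (1508 to 1773) in the forming joints and 1150 CPM (1088 to 1214) in the early chondrocytes, and sub-cluster 14, at 1554 CPM (1475.5 to 1636), overlapped the joints in its interval. COL9A3 had 319 CPM (264 to 383) in the forming joints, 358 CPM (324 to 395) in the early chondrocytes and 258 CPM (226 to 292) in sub-cluster 14. Thus the joints and the early chondrocytes differed beyond counting error for COL9A1 and not for COL9A3.

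In the remaining 14 sub-clusters of HH29, COL9A1 ranged between 26.9 CPM in the endothelium and 194 CPM in the smooth muscle, and COL9A3 between 0 UMIs in the endothelium and leukocytes and 32.3 CPM in the smooth muscle. From the muscle downward, each sub-cluster overlapped the next in the COL9A1 order. In the smooth muscle, with 31 cells, 30 of the 36 UMIs came from 1 cell. In the skin of this library 16.5% of 182 cells held a COL9A1 UMI and 1.65% a COL9A3 UMI, at a median of 3233.5 UMIs per cell against 3404 in the late chondrocytes. With cells thinned to 1000 UMIs, a comparison added after seeing the data, the skin shares were 3.85% (1.56 to 7.76%) for COL9A1 and 0.549% (0.014 to 3.02%) for COL9A3. Of the 13 other sub-clusters outside the skeleton and sub-cluster 14, 10 lay above the skin for COL9A1, up to 10.2% in the interdigit posterior to digit 4, and 10 for COL9A3, up to 3.23% in the smooth muscle. Without thinning, 3 of the 13 lay above the skin for COL9A1 and 11 for COL9A3. At both depths and for both genes, each of these intervals overlapped that of the skin. At the thinned depth the distal mesenchyme (3.76%), the muscle (2.86%) and the endothelium (1.59%) were below the skin for COL9A1. For COL9A3 the interdigit posterior to digit 4 (0.319%), the endothelium and the leukocytes were below it. Which of the shares above or below the skin are background was not tested. The skin itself varied over the technical replicates, with 32.4, 135 and 61.7 CPM of COL9A1 in replicates 1, 2 and 3. Without replicate 2, also tried after seeing the data, its level was 47.0 CPM of COL9A1 and 2.04 CPM of COL9A3, against 76.9 and 6.74 CPM with all replicates. Whether free RNA accounts for these counts was not tested.

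Part of the HH29 counts outside the skeletal sub-clusters came from single cells with many copies. Leaving sub-cluster 14 aside, 22 of 5543 such cells (0.397%) held at least 10 UMIs of the pair, and these cells carried 360 of the 1620 UMIs (22.2%) of the pair in these sub-clusters. They had a median of 5264 UMIs in all, against 2973 in the other 5521 cells, and they also held other cartilage transcripts, with MATN4 at 700.2 CPM against 62.1 CPM and ACAN at 107 CPM against 4.94 CPM. COL9A1 made up 83.3% of their pair. No doublet caller was run, and the part of doublets in these cells was not tested.

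At HH31 the late chondrocytes again stood first. COL9A1 had 937 CPM (876 to 999.95) and COL9A3 562 CPM (515 to 612) there, in 79.0% and 71.4% of the cells. The early chondrocytes had 55.9 CPM of COL9A1 (45.3 to 68.3) and 48.9 CPM of COL9A3 (39.0 to 60.6), in 10.6% and 9.86% of the cells. All other sub-clusters lay at or under 9.74 CPM of COL9A1 and 8.60 CPM of COL9A3, with overlapping intervals from each rank to the next. In the skin, 1 of 367 cells held COL9A1 and 2 held COL9A3 (0.272% and 0.545%), at a median of 2552 UMIs per cell against 2354 in the late chondrocytes.

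**Figure D1:**
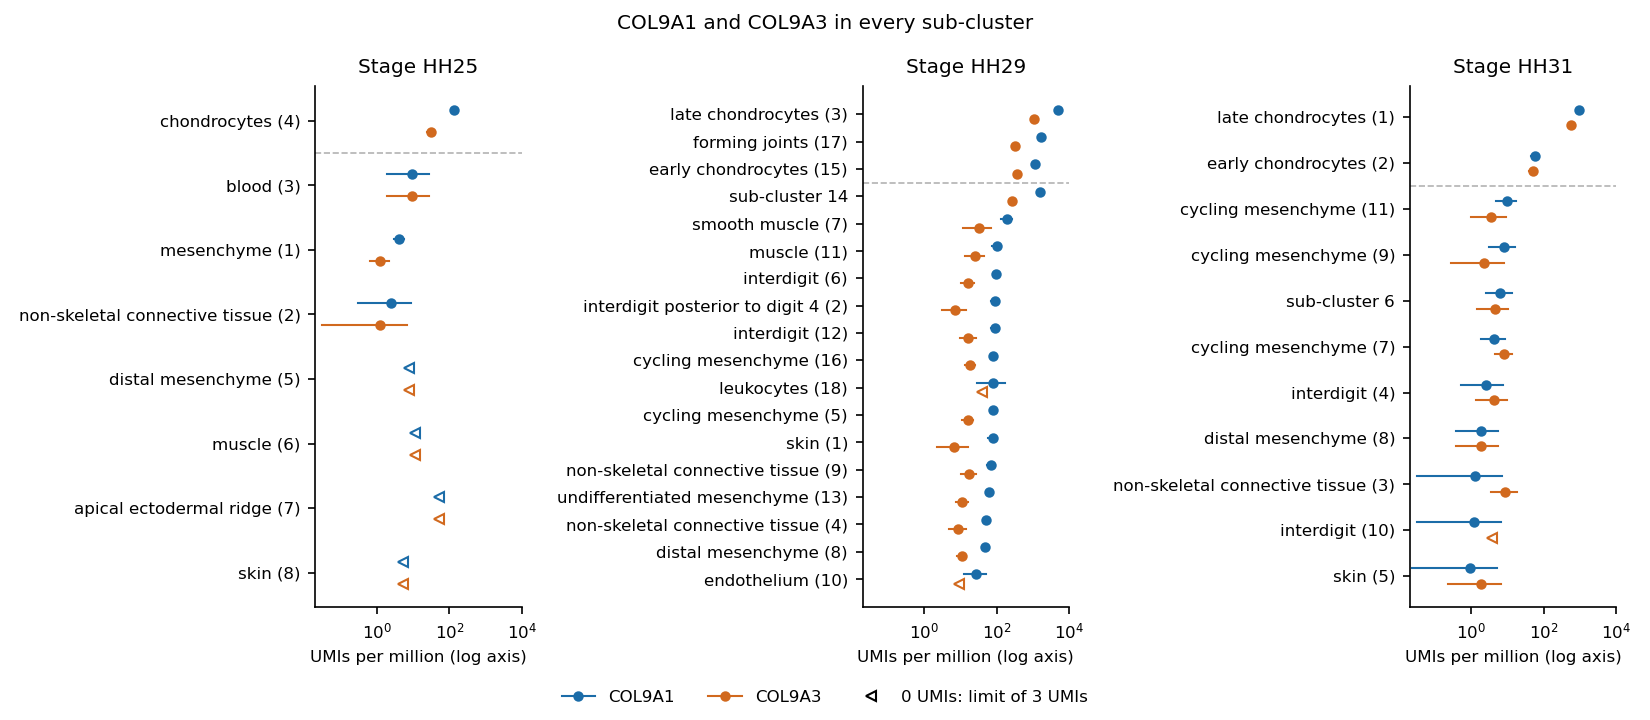
CPM (log axis) of COL9A1 (blue) and COL9A3 (orange) in every sub-cluster of HH25, HH29 and HH31, with exact 95% intervals for counting error; open triangles mark the limit of 3 UMIs for populations with 0 UMIs, and skeletal sub-clusters stand above the dashed line. The late chondrocytes hold the highest levels of both genes at HH29 (5014 and 1058 CPM) and HH31 (937 and 562 CPM), and HH29 sub-cluster 14 lies at the level of the forming joints for COL9A1.

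Taking the skeletal sub-clusters of a library together, COL9A1 had 131, 3320 and 371 CPM at HH25, HH29 and HH31, against 3.74, 138 and 3.95 CPM in all other cells of the same library. COL9A3 had 31.2, 737 and 232 CPM in the skeletal cells, against 1.33, 24.4 and 4.04 CPM in the other cells. Both genes were thus past 2-fold higher in all 3 libraries. Among all genes with enough UMIs, 4.51% were past 2-fold higher and 10.5% lower at HH25. The HH29 library had 4.76% higher and 8.48% lower, and the HH31 library 3.82% higher and 11.8% lower. The log2 ratio of COL9A1 was 5.13 (4.67 to 5.63), 4.59 (4.53 to 4.65) and 6.55 (6.11 to 7.04), and that of COL9A3 4.55 (3.73 to 5.45), 4.92 (4.78 to 5.06) and 5.85 (5.40 to 6.33). COL9A1 ranked 1st of all measured genes at HH25 and 2nd at HH31, next to ACAN, the core protein of the large cartilage proteoglycan, which ranked 2nd and 1st. At HH29 the ranks of COL9A1 and COL9A3 were 19 and 14. Without sub-cluster 14 among the other cells, a choice made after seeing the data, the HH29 log2 ratios were 5.58 for COL9A1 and 5.81 for COL9A3. Of the cartilage matrix genes measured, 5 of 6, 9 of 9 and 6 of 7 in stage order were also past 2-fold higher in the skeletal cells. The exception at HH25 was the proteoglycan SNORC, at -0.74 (-3.09 to 0.93), with 3 UMIs in the skeletal cells and 33 in the others. At HH31 it was MGP, an inhibitor of calcification, which was lower (-2.86). The medians of that list were 1.69, 3.74 and 1.69 on the log2 scale, against -0.17, -0.08 and -0.20 over all genes.

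COL9A2, the third chain, was less restricted than its partners. Its log2 ratios between skeletal and other cells, in stage order, were 2.39 (2.11 to 2.67), 3.76 (3.59 to 3.92) and 3.96 (3.798 to 4.12). They lay under those of both partners in each library, without overlap of the intervals. Of its 428 UMIs at HH25, 190 lay in the chondrocytes, at 104 CPM, and 207 in the mesenchyme, at 21.5 CPM.

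The late chondrocytes were then compared with the early chondrocytes of the same library. At HH29, COL9A1 was 4.36-fold higher in the late chondrocytes (log2 ratio 2.12, 2.04 to 2.21) and COL9A3 2.95-fold (1.56, 1.41 to 1.72). At HH31 the differences were 16.7-fold for COL9A1 (4.07, 3.76 to 4.38) and 11.5-fold for COL9A3 (3.52, 3.19 to 3.87). Both genes were thus past 2-fold at both stages, as were 6.87% of 7776 genes at HH29 and 4.68% of 5833 genes at HH31, while 5.22% and 7.54% were lower. COL9A1 ranked 105th and 7th among these genes, and COL9A3 192nd and 11th. COL9A2 was 2.38-fold higher at HH29 (1.25, 1.02 to 1.49) and 5.03-fold higher at HH31 (2.33, 2.16 to 2.50). In both libraries the log2 ratios thus stood in the order COL9A1, COL9A3, COL9A2. The intervals of COL9A3 and COL9A2 overlapped at HH29 and those of COL9A1 and COL9A3 at HH31. Markers of other cell types also differed between these populations. PRRX1, the mesenchyme marker, had 179 CPM in the late and 516 CPM in the early chondrocytes at HH29, and 255 CPM in the late and 765 CPM in the early chondrocytes at HH31 (log2 ratios -1.52 and -1.58). The 2 distal markers summed to 232 CPM in the late and 1018 CPM in the early chondrocytes at HH29, and to 984 CPM in the late and 1436 CPM in the early chondrocytes at HH31. The interdigit marker RDH10 had log2 ratios of -1.68 and -1.67. The 2 connective tissue markers summed to 656 CPM in the late and 621 CPM in the early chondrocytes at HH29, and to 596 CPM in the late and 990.3 CPM in the early chondrocytes at HH31. The joint marker ENPP2 was lower in the late chondrocytes at HH29 (-1.55) and higher at HH31 (1.85). ENPP2 was not particular to joints, with skeletal against other log2 ratios of 2.79, 3.03 and 3.37 at HH25, HH29 and HH31. None of these 7 markers was at 0 in any of the 4 populations. Their part in the result was not tested.

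The technical replicates of HH29 repeated these values. The COL9A1 level was 4884, 5388 and 4562 CPM in the late chondrocytes of replicates 1, 2 and 3, against 1228, 1265 and 814 CPM in the early chondrocytes. COL9A3 had 1078, 1115 and 914 CPM in the late chondrocytes, against 403, 382 and 242 CPM in the early chondrocytes. No replicate of one population reached the range of the other. The 3 replicates are technical and say nothing of variation between embryos.

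The fibril partners of type IX collagen moved the same way. COL2A1, which encodes the main cartilage fibril collagen, had a late over early log2 ratio of 1.83 (1.495 to 2.19) at HH29 and 3.21 (3.06 to 3.37) at HH31. COL11A1, a chain of the fibril's core, had 2.42 (2.26 to 2.58) and 2.49 (1.80 to 3.24). COL11A2 had no identifier in the tables that pair names with genes.

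Among the cartilage matrix genes, 7 of 9 measured at HH29 and 4 of 6 at HH31 were past 2-fold higher in the late chondrocytes and none lower, with medians of 1.64 and 1.81 on the log2 scale, against 0.02 and -0.03 over all genes. The values of ACAN were 1.64 and 2.72, and those of SNORC, a chondrocyte membrane proteoglycan, 2.86 and 4.14. In the study, a group of co-expressed genes around COL9A1, COL9A3, MATN4, SNORC and ACAN was linked to chondrocyte maturation in these same data. The late and early populations were thus not defined independently of such genes, and their differences are no independent support. The matrix proteins EPYC (5.89) and MATN1 (5.10) had the widest differences of the list at HH29, while at HH31 MATN1 fell under the minimum of 20 UMIs and EPYC was not in the table used. VCAN, a proteoglycan of the early limb mesenchyme, went the other way at HH29 with -0.81 (-0.97 to -0.66), short of 2-fold.

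Among the chondrogenic regulators, FGFR3, a growth factor receptor of chondrocytes, was past 2-fold higher at both stages (1.49 and 2.22), and WWP2, a ubiquitin ligase whose gene is a target of SOX9 in the mouse, and SOX6, a partner of SOX9, at HH31 (2.78 and 1.33, against 0.59 and 0.51 at HH29). The difference between the stages was not tested. SOX9 itself stood at -0.39 (-0.48 to -0.30) at HH29 and 0.63 (0.47 to 0.78) at HH31, under 2-fold in both, and RUNX2, a regulator of bone and of chondrocyte maturation, at 0.20 and -1.04. In all, 1 of 6 regulators was higher at HH29, and 3 of 6 were higher and 1 lower at HH31. The shares over all genes were 6.87% higher and 5.22% lower at HH29, and 4.68% higher and 7.54% lower at HH31. With 6 genes, a count of 1 cannot be told from these shares.

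The genes of collagen processing, which modify and fold procollagen chains, moved less than the cartilage matrix genes. Of 10 measured, 1 was past 2-fold higher at HH29 (PLOD2, a lysyl hydroxylase, 1.08) and 2 at HH31 (P4HA2, a prolyl hydroxylase subunit, 1.98, and PLOD2, 1.56). Over all genes, 6.87% were past 2-fold higher and 5.22% lower at HH29, and 4.68% higher and 7.54% lower at HH31. With 10 genes, such small counts cannot be told from these shares. P4HA3, another prolyl hydroxylase subunit, was lower at both stages, at -1.72 in each. The collagen chaperone SERPINH1 had 0.93 and 0.86, under 2-fold. The medians of the list were 0.81 and 0.79, against 0.02 and -0.03 over all genes. Of the other fibril-associated collagens, COL12A1 had 1.22 at HH29 and -2.61 at HH31, and COL14A1 0.58 and 1.16.

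**Figure D2:**
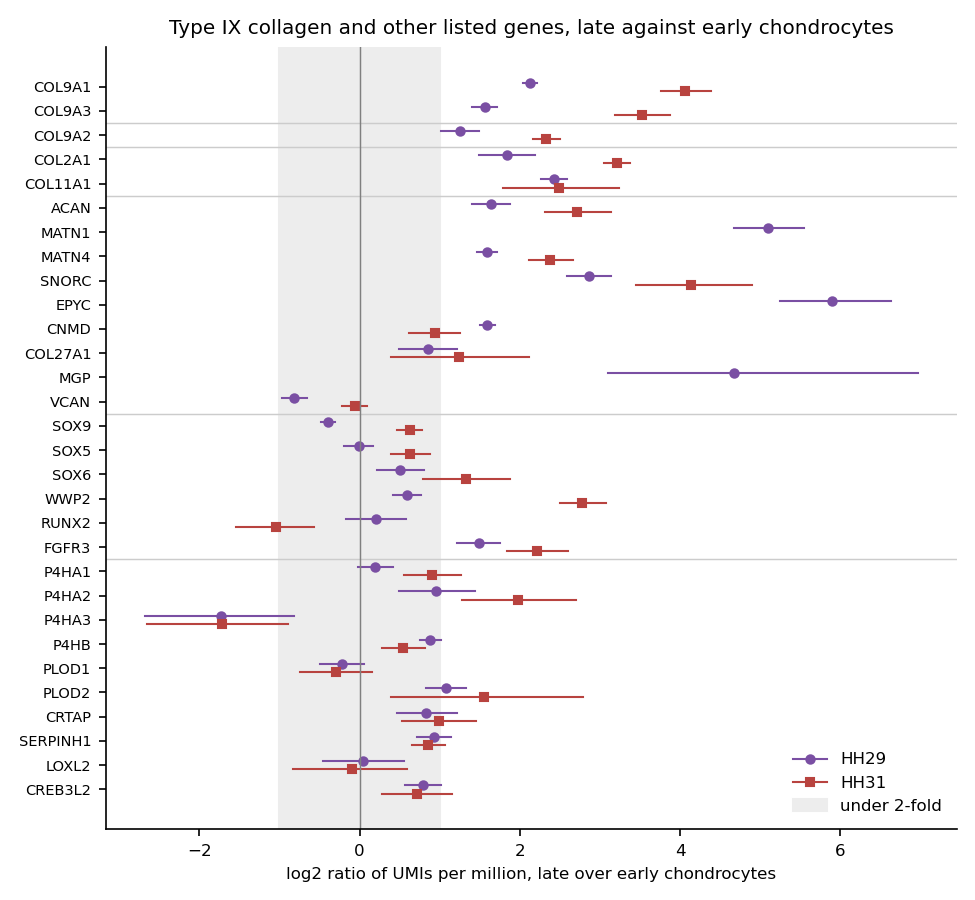
Log2 ratio of CPM in late over early chondrocytes of the same library, at HH29 (purple circles) and HH31 (red squares), for the type IX collagen genes, the fibril partners, the cartilage matrix genes, the chondrogenic regulators and the genes of collagen processing, in blocks from top to bottom; bars are exact 95% intervals for counting error and the grey band marks differences under 2-fold. COL9A1 lies at 2.12 and 4.07, COL9A3 at 1.56 and 3.52 and SOX9 within the band at both stages.

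The forming joints had more COL9A1 than the early chondrocytes, by a log2 ratio of 0.51 (0.37 to 0.65), and no measurable difference in COL9A3, at -0.17 (-0.48 to 0.13). Both values were under 2-fold, where 4.96% of 6370 genes were at least 2-fold higher and 6.5% lower. COL9A1 had 1576, 1755 and 1466 CPM in the joints of technical replicates 1, 2 and 3, against 1228, 1265 and 814 CPM in the early chondrocytes, so the values did not overlap. COL9A3 had 358, 293 and 299 CPM in the joints, against 403, 382 and 242 CPM in the early chondrocytes, with overlap. COL9A2 had 0.68 (0.31 to 1.05). Among the cartilage matrix genes, 1 of 8 was past 2-fold, MATN1, which was lower in the joints at -1.53 (-3.22 to -0.20). The study reports that the averaged activity of the co-expressed genes around COL9A1 and COL9A3 was excluded from the forming joints. Here 89.8% of the 118 joint cells held a COL9A1 UMI and 56.8% a COL9A3 UMI. An average over a group of genes and the level of 1 member are different measures.

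Against the late chondrocytes, the joints had less of both genes, with log2 ratios of -1.61 (-1.74 to -1.496) for COL9A1 and -1.73 (-2.01 to -1.46) for COL9A3. Both were past 2-fold lower, as were 10.6% of 7159 genes, with 6.94% higher, and 7 of the 9 cartilage matrix genes. COL9A2 was lower by less, at -0.57 (-0.89 to -0.26). The late and the early chondrocytes used here are those of the comparison above, so the 3 comparisons share cells. MATN1 (-6.63), EPYC (-5.04), COL11A1 (-2.70) and COL2A1 (-2.48) differed more widely than the type IX genes. SOX9, at 1416 CPM in the joints and 1196 CPM in the late chondrocytes, differed by 0.24 (0.10 to 0.38).

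The balance of the pair was measured as the share of COL9A1 in the summed UMIs of COL9A1 and COL9A3. Tags at the 3′ end do not grow with transcript length, but capture can differ between genes, so that the share is compared between populations and is not a molar ratio. In the late chondrocytes of HH29 it was 82.6% (81.9 to 83.3%), against 76.2% (74.2 to 78.2%) in the early chondrocytes, without overlap. The technical replicates gave 81.9, 82.9 and 83.3% in the late chondrocytes, against 75.3, 76.8 and 77.1% in the early chondrocytes. The forming joints had 83.7% (80.8 to 86.3%) and sub-cluster 14 85.8% (84.0 to 87.4%). Early chondrocytes thus had the lowest share of COL9A1 among these 4 populations, and the other 3 lay above its interval.

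At HH31 the direction was the same with overlapping intervals, 62.5% (59.9 to 65.0%) in the late and 53.3% (45.8 to 60.8%) in the early chondrocytes. The HH25 chondrocytes had 80.8% (75.9 to 85.1%). Over the skeletal cells of a library, the UMIs of COL9A1 were 4.21 times those of COL9A3 (3.14 to 5.72) at HH25. The HH29 ratio was 4.50 (4.31 to 4.71), and the HH31 ratio 1.60 (1.44 to 1.77). HH25 and HH31 share the 10x chemistry and differ in stage and dissection, which cannot be told apart.

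**Figure D3:**
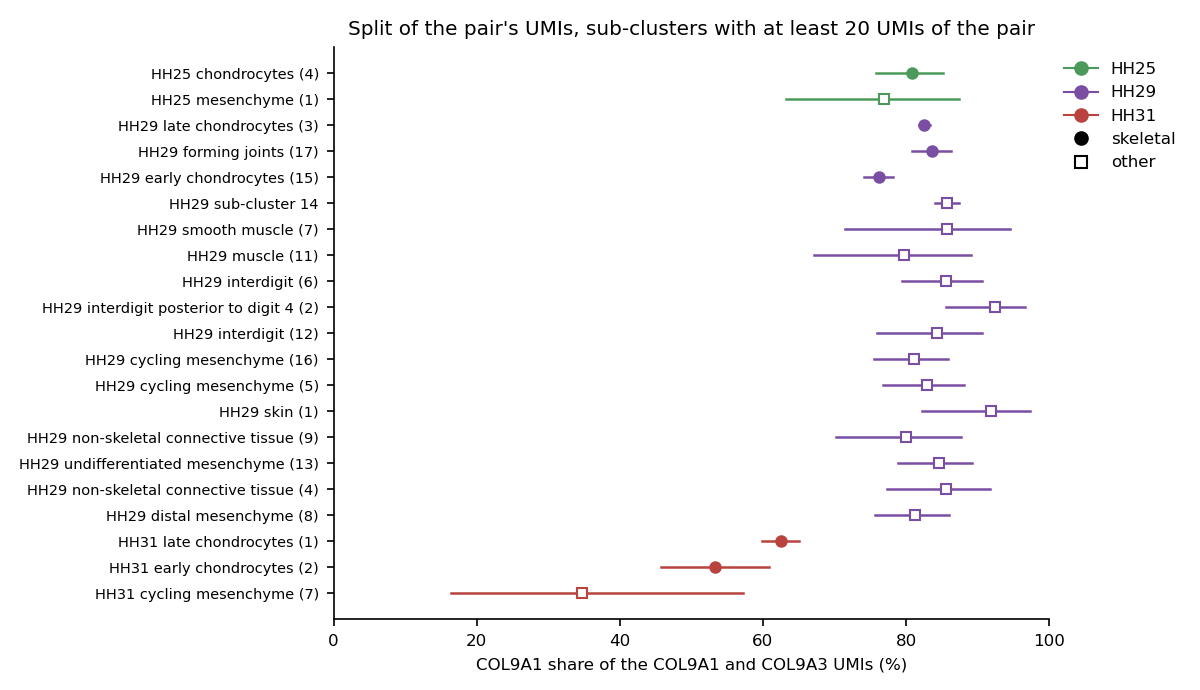
Share of COL9A1 in the UMIs of COL9A1 and COL9A3 together (%) in the sub-clusters with at least 20 UMIs of the pair, with exact 95% intervals; circles are skeletal and squares other sub-clusters, green for HH25, purple for HH29 and red for HH31. The skeletal sub-clusters of HH25 and HH29 lie between 76.2 and 83.7% and those of HH31 at 62.5 and 53.3%, and the early chondrocytes lie under the late chondrocytes in both libraries that hold them.

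In single late chondrocytes of HH29 with at least 10 UMIs of the pair (356 of 471 cells), the median share of COL9A1 was 84.2%, with 10% of cells under 70.0% and 10% over 94.8%. None of them held more COL9A3 than COL9A1. The spread of the share over these cells was 1.57 times the variance that a fixed share would give by counting alone. At HH31, 24 late chondrocytes had as many UMIs, with a median of 66.4% and a range of 10.0 to 100%, and 4 of them held more COL9A3.

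The counts of COL9A1 relative to COL2A1 and COL9A2 also differed between libraries. Per 100 UMIs of COL2A1, the skeletal cells of HH25 had 72.3 UMIs of COL9A1 (61.0 to 85.6), those of HH29 1929 (1774 to 2102) and those of HH31 40.3 (37.4 to 43.4). COL2A1 itself had 182, 172 and 920.2 CPM in these cells. In UMIs, COL9A2 was under COL9A1 in the late chondrocytes of HH29, at 384 against 5014 CPM. It was over COL9A1 in those of HH31, at 1180.3 against 937 CPM. UMIs here do not depend on transcript length, but capture can differ between genes. These orders, and the counts per 100 UMIs of COL2A1, are therefore of UMIs and not of transcripts in the cell. Whether the platform sets these orders was not tested.

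Co-detection asked whether the 2 chains were counted in the same cells. To keep deep cells from holding both genes by depth alone, every cell was thinned to 1000 UMIs. Both genes were then found in 55.6% (51.0 to 60.2%) of the late chondrocytes of HH29, in 22.0% (14.9 to 30.6%) of the forming joints and in 22.2% (18.03 to 26.7%) of the early chondrocytes. In sub-cluster 14 it was 16.5% (12.5 to 21.2%), and in the other cells without it 0.433% (0.278 to 0.644%). At HH31, 30.03% (25.3 to 35.1%) of the late chondrocytes held both, against 0.616% (0.168 to 1.57%) of the early chondrocytes. Of the other cells 0 of 3816 did, where the exact interval allows a share of up to 0.0966%. At HH25, 1.03% (0.472 to 1.95%) of the chondrocytes held both. Without thinning the shares were 81.1, 54.2 and 40.8% in the late chondrocytes, joints and early chondrocytes of HH29. They were 61.5 and 2.77% in the late and early chondrocytes of HH31 and 2.29% in the chondrocytes of HH25. In thinned cells, the product of the 2 genes' separate shares was 51.8, 17.6 and 13.3% in these populations of HH29. It was 27.0 and 0.259% in those of HH31 and 0.450% in the chondrocytes of HH25. Large shares with both genes thus partly follow from how common each gene is.

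COL9A3 was rarely found without COL9A1 where counts were high. Of the thinned late chondrocytes with COL9A3 at HH29, 98.1% (95.7 to 99.4%) also held COL9A1, and 5 of 471 cells held COL9A3 alone. In the early chondrocytes of HH29 the share was 78.1% (69.0 to 85.6%), in the late chondrocytes of HH31 67.1% (59.2 to 74.3%), and in the chondrocytes of HH25 29.03% (14.2 to 48.0%). Their order is that of the COL9A1 level in these 4 populations. Among all thinned cells of these populations, in the same order, 91.3, 46.8, 60.3 and 12.7% held COL9A1.

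The odds of holding 1 gene were higher in cells with the other. In thinned cells the log2 odds ratio was 3.37 (2.05 to 4.69) in the late chondrocytes of HH29, 1.64 (0.17 to 3.10) in the forming joints, 2.74 (1.99 to 3.50) in the early chondrocytes, 0.74 (0.11 to 1.37) in the late chondrocytes of HH31, 1.60 (0.08 to 3.13) in its early chondrocytes and 1.61 (0.48 to 2.74) in the chondrocytes of HH25. All lay above 0 in their intervals, which here are approximate (Wald) and were computed after a small constant was added to each count. The value of the early chondrocytes of HH31 rests on 4 cells with both genes. Its interval starts so near 0 that it does not settle a difference from 0. Taken within 5 classes of depth and without thinning, the log2 odds ratios were between 1.42 and 5.62 in these 6 sub-clusters. Over all skeletal cells, which mix late and early cells, they were 1.61, 3.11 and 2.75 at HH25, HH29 and HH31 after thinning. At HH25 the value rests on 9 cells with both genes, and with cells thinned to 500 UMIs it was 0.31. Raised odds were not particular to skeletal cells. In thinned cells of HH29 the log2 odds ratio was 2.49 (1.38 to 3.60) in sub-cluster 14. It was 3.23 (2.50 to 3.96) in the other cells without it, which mix many populations. The other cells of HH25 and HH31 had 0 thinned cells with both genes.

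**Figure D4:**
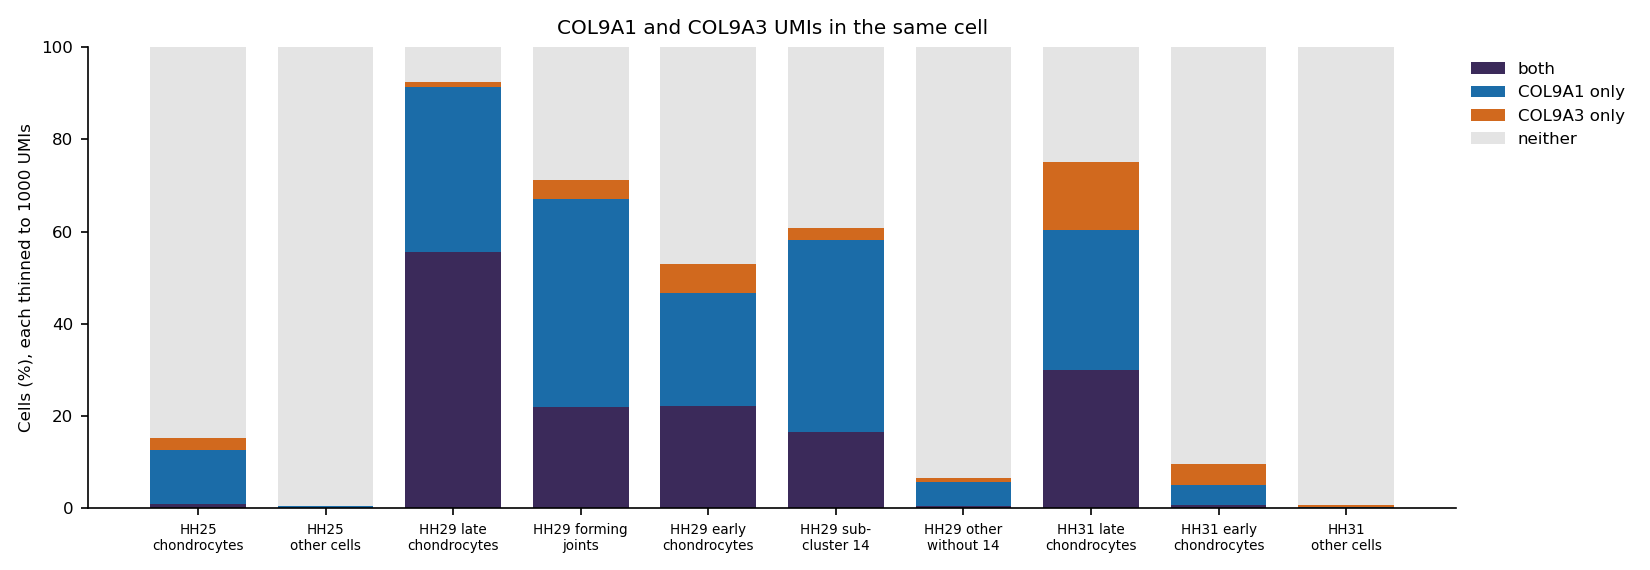
Share of cells (%), each thinned to 1000 UMIs, with UMIs of both genes, of COL9A1 alone, of COL9A3 alone and of neither, by population and stage. Both genes are found together in 55.6% of the late chondrocytes of HH29 and 30.03% of those of HH31, and COL9A3 alone in 1.06% of the late chondrocytes of HH29.

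At HH31, COL9A2 was found most often in the cells that held both partners. Among all skeletal cells of HH31, late and early together, thinned to 1000 UMIs, 80.9% (72.3 to 87.8%) of the cells with both genes held COL9A2, against 59.0% (52.1 to 65.6%) of those with 1 and 21.8% (18.7 to 25.1%) of those with neither. At HH29 the shares were 31.9% (27.2 to 36.9%), 27.8% (23.2 to 32.9%) and 10.2% (6.74 to 14.8%), where the first and second overlapped. In the late chondrocytes of HH31 alone they were 82.1% (73.4 to 88.8%) with both, 65.4% (57.5 to 72.8%) with 1 and 44 of 88 cells with neither. In the early chondrocytes of HH31 they were 2 of 4 cells with both, 41.4% with 1 and 17.5% with neither. In the late chondrocytes of HH29 they were 35.1, 32.4 and 13.9%. In the forming joints the order was another, with 19.2% (6.55 to 39.4%) of cells with both, 27.6% (16.7 to 40.9%) of those with 1 and 14.7% (4.95 to 31.1%) of those with neither, and the intervals overlapped. All 3 chains were counted in 24.6% (20.2 to 29.5%) of the late chondrocytes of HH31, and in 19.5% (16.05 to 23.4%) of those of HH29.

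At HH29 and HH31, both genes were higher in skeletal cells with more COL2A1, the collagen of the fibril they coat. In HH31 skeletal cells with 0 COL2A1 UMIs, COL9A1 stood at 37.1 CPM (26.7 to 50.1), and in cells with under 10, 10 to 30 and 30 to 100 COL2A1 UMIs per 10000 at 196, 752 and 1614 CPM (1464 to 1774). COL9A3 had 39.7, 168, 444 and 847 CPM in the same bins, and COL9A2 179, 365, 960.2 and 2173 CPM. The order held within the late chondrocytes alone, where COL9A1 had 372, 441, 851 and 1632 CPM, with overlap between the lowest bins. The COL9A1 share of the pair was 48.3% (37.4 to 59.3%) in the lowest bin and 65.6% (61.8 to 69.2%) in the highest. Within the late chondrocytes alone it was 57.1% (39.4 to 73.7%) and 65.4% (61.6 to 69.0%), with overlap. Median depth was 2313, 2679, 2361 and 2018 UMIs per cell in the 4 bins, so the highest bin was the shallowest.

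At HH29 the same bins, without the last, gave 2111, 5022 and 7025 CPM of COL9A1 and 456, 1111 and 2121 CPM of COL9A3. Within the late chondrocytes alone COL9A1 had 3829 CPM in cells with 0 COL2A1 UMIs and 5760.2 CPM in cells with under 10 per 10000. The cells with under 10 COL2A1 UMIs per 10000 were the deepest (3776 UMIs in the median, against 2696 in those with 0 and 1982 in the last bin, which had 20 cells). At HH25 the values were 118, 159 and 201 CPM of COL9A1 with overlapping neighbours, and 21.6, 40.7 and 155 CPM of COL9A3, where the highest bin (35 cells) stood apart. The COL9A1 share of the pair went the other way in these libraries than over the skeletal cells of HH31. It was 82.2% (81.1 to 83.3%) in the lowest and 76.8% (72.8 to 80.5%) in the highest bin of HH29, and 84.5% (78.4 to 89.5%) in the lowest and 56.5% (34.5 to 76.8%) in the highest bin of HH25. The middle bin of HH29 had 81.9%, and the highest bin of HH25 held 13 UMIs of COL9A1 and 10 of COL9A3. Within the late chondrocytes of HH29 the share was 84.0% (82.7 to 85.2%) with 0 COL2A1 UMIs. With under 10 per 10000 it was 82.3% (81.4 to 83.2%), with overlap. Within the early chondrocytes of HH29 these bins had 76.4 and 75.7%, also with overlap.

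**Figure D5:**
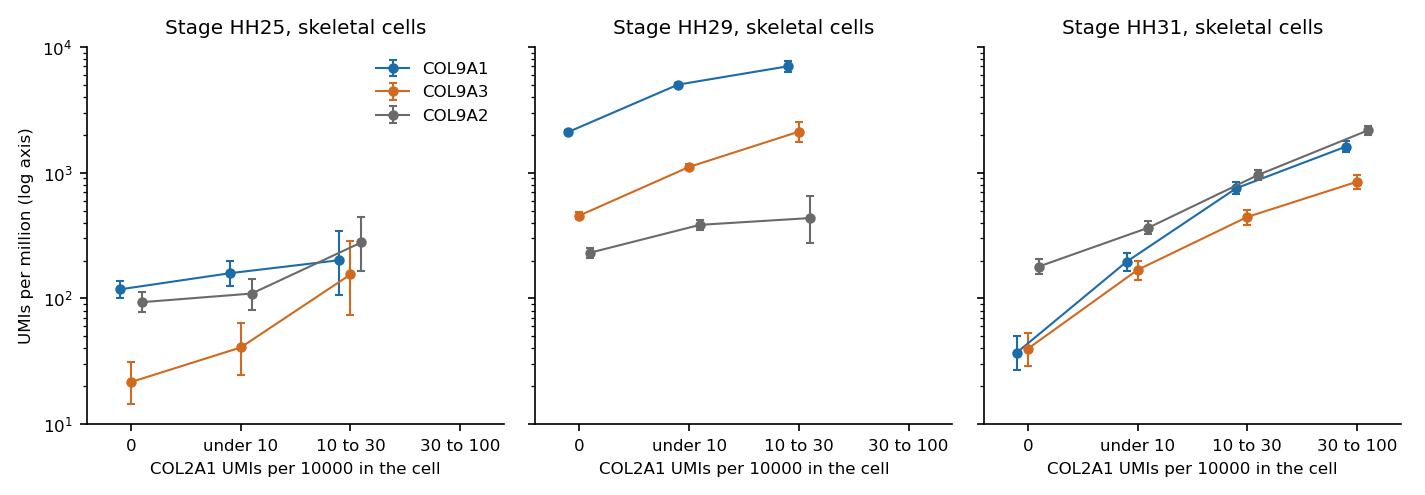
CPM (log axis) of COL9A1, COL9A3 and COL9A2 in skeletal cells grouped by their COL2A1 UMIs per 10000, at HH25, HH29 and HH31, with exact 95% intervals; bins with fewer than 20 cells are left out. At HH31 COL9A1 lies at 37.1 CPM in cells without COL2A1 and at 1614 CPM in the bin of 30 to 100, and at HH29 it starts at 2111 CPM.

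At HH25 and HH31, COL2A1 with hardly any COL9A1 or COL9A3 was seen in the skin and in part of the other sub-clusters outside the skeleton. At HH31 the skin had 244 UMIs of COL2A1 (221 CPM, 194 to 250.01), close to the 232 CPM (210.2 to 256) of the early chondrocytes, but 1 UMI of COL9A1 and 2 of COL9A3. Per 100 UMIs of COL2A1 this made 0.410 UMIs of COL9A1 in the skin (0.010 to 2.305), against 24.1 in the early chondrocytes (19.0 to 30.1) and 43.4 in the late chondrocytes (40.1 to 47.0). At HH25 the skin had 62 UMIs of COL2A1 (111 CPM) and 0 of both type IX genes. The distal mesenchyme, the muscle and the apical ectodermal ridge of HH25 also had 0 of both, with 15, 8 and 4 UMIs of COL2A1. COL9A2 had 32 and 7 UMIs in the skin of HH31 and HH25. The skin of HH29 differed from these, with 21 UMIs of COL2A1 (28.3 CPM) and 57 UMIs of COL9A1, up to 13 in 1 cell, which made 271 UMIs of COL9A1 per 100 of COL2A1 (162 to 471). The source of these counts was not tested.

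Finally, genes were ranked by the likeness of their pattern to the pair, as the Pearson correlation over the 37 sub-clusters of the log2 level, each stage centred on its own mean, among 8234 other genes with at least 100 UMIs in all. For COL9A1 the first genes were COL9A3 (r = 0.969), ACAN (0.951), WWP2 (0.945), COL9A2 (0.942) and MATN4, a cartilage matrix protein (0.931). For COL9A3 they were ACAN (0.973), COL9A1 (0.969), COL15A1, a collagen of basement membranes (0.961), COL9A2 (0.949) and WWP2 (0.926). COL2A1 ranked 10th for COL9A1 (0.867) and 16th for COL9A3 (0.862). Sub-clusters of 1 library share its preparation and depth, and these correlations are descriptions. By rank correlation, 2 of the 5 genes for COL9A1 and 3 of the 5 for COL9A3 were the same.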

How the data were processed

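Single-cell 3′ RNA-seq of chicken hindlimb autopods was analysed at HH25, HH29 and HH31, with 1 library per stage and 3 technical replicates within HH29. The authors deposited counts, as UMIs per gene and cell, with cluster and sub-cluster labels. The submitters' processing notes name only Cell Ranger 2. The study names either Cell Ranger or the DropSeq pipeline, with alignment to Gallus_gallus-5.0. The deposited cell cycle scores were not used. Cells over 4 times the mean UMIs, under 20% of the median or over 10% mitochondrial UMIs were removed (2, 17 and 5 cells), which left 13857056, 23846769 and 13315558 UMIs. MT-CO2 was kept out of the mitochondrial sum, since with it 192 and 235 cells of HH25 and HH31 passed the limit. The study also states a limit on ribosomal UMIs, which was not applied here. Ribosomal protein genes made up 35.0, 17.7 and 42.8% of the UMIs kept at HH25, HH29 and HH31. No doublet step was given or run.

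UMIs were summed per sub-cluster and divided by all UMIs (CPM). Levels and log2 ratios have exact 95% intervals (Poisson and Clopper-Pearson), which cover counting error only, and a count of 0 has a limit of 3 UMIs. Genes with at least 20 UMIs over the populations compared entered a comparison, and past 2-fold was a description of size, without a test. Co-detection used cells thinned to 1000 UMIs and log2 odds ratios with Wald intervals. Named genes were the 3 type IX genes, fixed lists and the 5 genes most like each of COL9A1 and COL9A3 by Pearson correlation of log2(CPM + 10). Of the lists, 9 of 16 cartilage matrix genes, 6 of 9 regulators, 10 of 19 collagen processing genes, 2 of 3 fibril partners and 2 of 7 other fibril-associated collagens had an identifier. The members and lists were chosen with earlier results of these data known. The scripts were tested on simulated data. Python 3.11.15, numpy 2.4.6, pandas 2.3.3, scipy 1.17.1 and matplotlib 3.10.9 were used. Alternatives changed the cells kept, scaling, pooling, minimum, thinned depth, likeness measure and technical replicates; the mitochondrial limit on all 12 genes, the omission of sub-cluster 14 and the comparisons with the skin of HH29 were added after seeing the data.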

Additional observations from a re-analysis of the deposited data

How the results depend on the processing

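Across 150 alternative values, 118 stayed within the interval of the main value, or for counts of genes within a set fold of it, and 32 did not. A change of direction was defined only for log2 ratios and log2 odds ratios, and 0 of these values showed it. For the 12 log2 ratios, 67 of 74 values stayed within the interval, 7 did not and 0 changed direction. Some of these alternatives could hardly differ from the main value. At HH29 the mitochondrial limit on 12 genes removed 0 cells, so its values equalled the main ones. Use of all deposited barcodes restored only 2, 17 and 5 cells at HH25, HH29 and HH31. With the mean of single-cell CPM, the HH29 skeletal log2 ratios were 4.37 (COL9A1) and 4.73 (COL9A3), and without sub-cluster 14, an alternative added after seeing the data, 5.58 and 5.81. Leaving out each technical replicate of HH29 in turn gave 4.48 to 4.71 for COL9A1 in skeletal against other cells and 2.04 to 2.21 in late against early chondrocytes. As a mean over cells, the COL9A1 share of the pair was 79.2% at HH29 and 58.7% at HH31. The share of skeletal cells with both genes at HH25, HH29 and HH31 was 0.114, 20.1 and 4.39% with cells thinned to 500 UMIs, 2.01, 45.9 and 17.1% at 1500 UMIs, and 2.29, 62.3 and 23.5% without thinning. The log2 odds ratio was 0.31 (HH25) and 2.10 (HH29) at 500 UMIs, and for HH31 3.57 at 1500 UMIs and 3.87 without thinning. Without a minimum of UMIs, 984 genes were past 2-fold higher and 1022 lower in the late chondrocytes of HH29, against 534 and 406 in the report's setting, and 693 and 987 at HH31, against 273 and 440. With at least 100 UMIs they were 192 and 96 at HH29, and 67 and 99 at HH31. With Spearman correlation, 2 of the 5 genes most like COL9A1 and 3 of the 5 most like COL9A3 were shared. The shares of cells with both genes moved with the thinned depth, since fewer UMIs are drawn; for the other values the cause was not tested. No paired analysis was possible because each stage had 1 library.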
